A study of Mus musculus with 6 samples.

Results

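The comparison described here set C2C12 cells that stably carried a short hairpin RNA against the Pkm2 isoform of pyruvate kinase (shPkm2) against C2C12 cells that stably carried a scrambled, non-targeting hairpin (shScr). C2C12 is an immortalized line of mouse myoblasts, and every group was harvested 48 h after the change from growth medium to a low-serum medium with horse serum, insulin, transferrin and selenium, so the controls shared both the line and the induction of differentiation. The comparison took 4 of the 6 RNA-seq libraries of the study, 2 per group, chosen by the sample titles. The other 2 libraries carried a hairpin against the Pkm1 isoform (shPkm1) under the same conditions. They were part of the fit from which every p-value was taken. Their values are given beside some results, with a test only where its outcome is stated. Nothing in the labels says that the libraries of a group came from separate cultures or from separate clones, so each p-value measures the spread between these libraries, which may be technical. Of 17558 genes in the table, 12643 had enough counts to be tested, and these are described by function.

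Myoblasts that differentiate leave the cell cycle, switch on Myod1 partners such as Myog and the Mef2 factors, fuse, and fill with sarcomeres, the repeating units of thick myosin and thin actin filaments. The cell cycle inhibitor Cdkn1a (p21) accompanies the exit, and Id proteins hold back the process by binding the partners of Myod1. Pyruvate kinase catalyses the last step of glycolysis, and the Pkm gene makes its M1 or M2 form by using alternative exons. Differentiated muscle is known for the M1 form and dividing cells for the M2 form.

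Each library held between 18216896 and 19796036 estimated counts. The values of all genes in log2 CPM (counts scaled for depth and composition) correlated at r = 0.988 between the control libraries and 0.994 between the libraries labelled shPkm2, against 0.860 to 0.884 across the groups, although genes are not independent replicates. Pkm (chromosome 9, 59656576 to 59679372 in GRCm38.p6) was the target and was checked first. The gene as a whole stood at 3019 and 3472 CPM in the control libraries and at 3658 and 3794 in those labelled shPkm2, a log2 difference of 0.20 (SE 0.133, adjusted p 0.198) and no call. In shPkm1 it stood at 1998 and 2186 CPM, and the libraries labelled shPkm2 were higher than shPkm1 by 0.83 (SE 0.134, adjusted p 0.000158). The Pkm1 isoform stood at 980.1 and 958 CPM against 313 and 334, and the Pkm2 isoform at 1927 and 2468 CPM against 3329.9 and 3452. The Pkm1 isoform fell by 1.58 (SE 0.0763, adjusted p 0.00124) on the log2 scale. The targeted Pkm2 isoform differed by 0.63 (SE 0.161, adjusted p 0.0657), so a fall of the target was not seen, and the group is named by its label throughout. The isoforms share most of their sequence, and how the counting divided shared reads is not given in the sources used here.

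In the libraries labelled shPkm2, 8602 of the 12643 tested genes, or 68.0%, differed from the control at an adjusted p under 0.05 in edgeR's quasi-likelihood test. Of these, 4283 genes (33.9% of those tested) were higher and 4319 (34.2%) were lower, and counts over gene lists below are to be read against those shares. The median log2 fold change of all tested genes was 0.01. With libraries scaled by their totals alone that median moved by 0.33, and 69.3% of the calls were higher in place of 49.8%. Falls reached further than rises. At 2-fold or more 1788 genes were higher and 1737 lower, at 4-fold 451 and 799, at 8-fold 88 and 494, and at 32-fold 13 and 220. In 178 genes called lower, both libraries labelled shPkm2 were at or under the floor of 3 counts, and in 55 genes called higher both control libraries were.

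Named by size over all genes, the largest falls lay mostly in skeletal muscle genes. Smpx, which encodes a small muscle protein of the costamere, had 1273 and 749 counts in the control libraries and 2 and 2 in those labelled shPkm2, and by summed counts scaled to library size it was 639-fold lower (interval 249 to 2349). Intervals of this kind are exact binomial intervals at 95%, are given where a group had 3 counts or fewer in both libraries, and cover counting error only. Adamtsl2, a secreted glycoprotein that binds fibrillin, had 411 and 805 counts against 0 and 1 and was 1538.1-fold lower (interval 276 to 60802.5). Cilp2, a cartilage-type matrix protein, and Dbh, the enzyme that makes noradrenaline, had 202 and 265 counts against 0 and 1 and 211 and 177 against 1 and 0. Cilp2 was 591-fold lower (interval 106 to 23381.3) and Dbh was 491-fold lower (interval 87.6 to 19434.4). The other 6 of the 10 were Fndc5, the precursor of irisin (-8.62 on the log2 scale), the perinatal myosin heavy chain Myh8 (-8.33), the protease precursor Ctrb1 (-8.24), the muscle creatine kinase Ckm (-8.16), the kinase Srpk3 (-8.15) and the fast troponin C Tnnc2 (-8.02). Adamtsl2 stood at 25.4 and 32.6 CPM in shPkm1 and 26.1 and 45.5 in the control, with 478 and 644 counts in shPkm1, and the libraries labelled shPkm2 were lower than shPkm1 too (adjusted p 7.12e-09).

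The 10 largest rises had fewer muscle genes among them. Hmga2, a chromatin protein of growing embryonic tissue, stood at 6.02 and 7.80 CPM in the control libraries and 128 and 121 in those labelled shPkm2, a log2 rise of 4.16 (SE 0.138, adjusted p 3.19e-11). Its values in shPkm1 were 11.2 and 9.51 CPM, and the difference from shPkm1 was 3.59 (SE 0.130, adjusted p 1.39e-10). Aqp1, a water channel, rose by 4.44 (SE 0.161, adjusted p 6.71e-11) from 1.65 and 1.24 to 30.7 and 32 CPM, and in shPkm1 it was also high, at 43.2 and 42.7. Ngfr, the low-affinity neurotrophin receptor, rose from 0.317 and 0.508 to 8.61 and 7.54 CPM, Penk, the enkephalin precursor, from 0.254 and 0.565 to 9.09 and 8.78, and Car8, a carbonic anhydrase-related protein, from 0.571 and 0.452 to 14.5 and 16.5. Ranbp3l had 2 and 3 counts in the control libraries against 246 and 219 and was 73.5-fold higher (interval 31.3 to 228). Selp, the adhesion receptor P-selectin (4.05), and the little-described Ccdc18 (4.0) completed the distinct genes. The remaining pair is uncertain, since Pcdhgb8 (at least 29.8-fold higher) shares its last exons with the other gamma protocadherins and Prl2c3 (5.71) belongs to a cluster of near-identical proliferin genes.

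**Figure D1:**
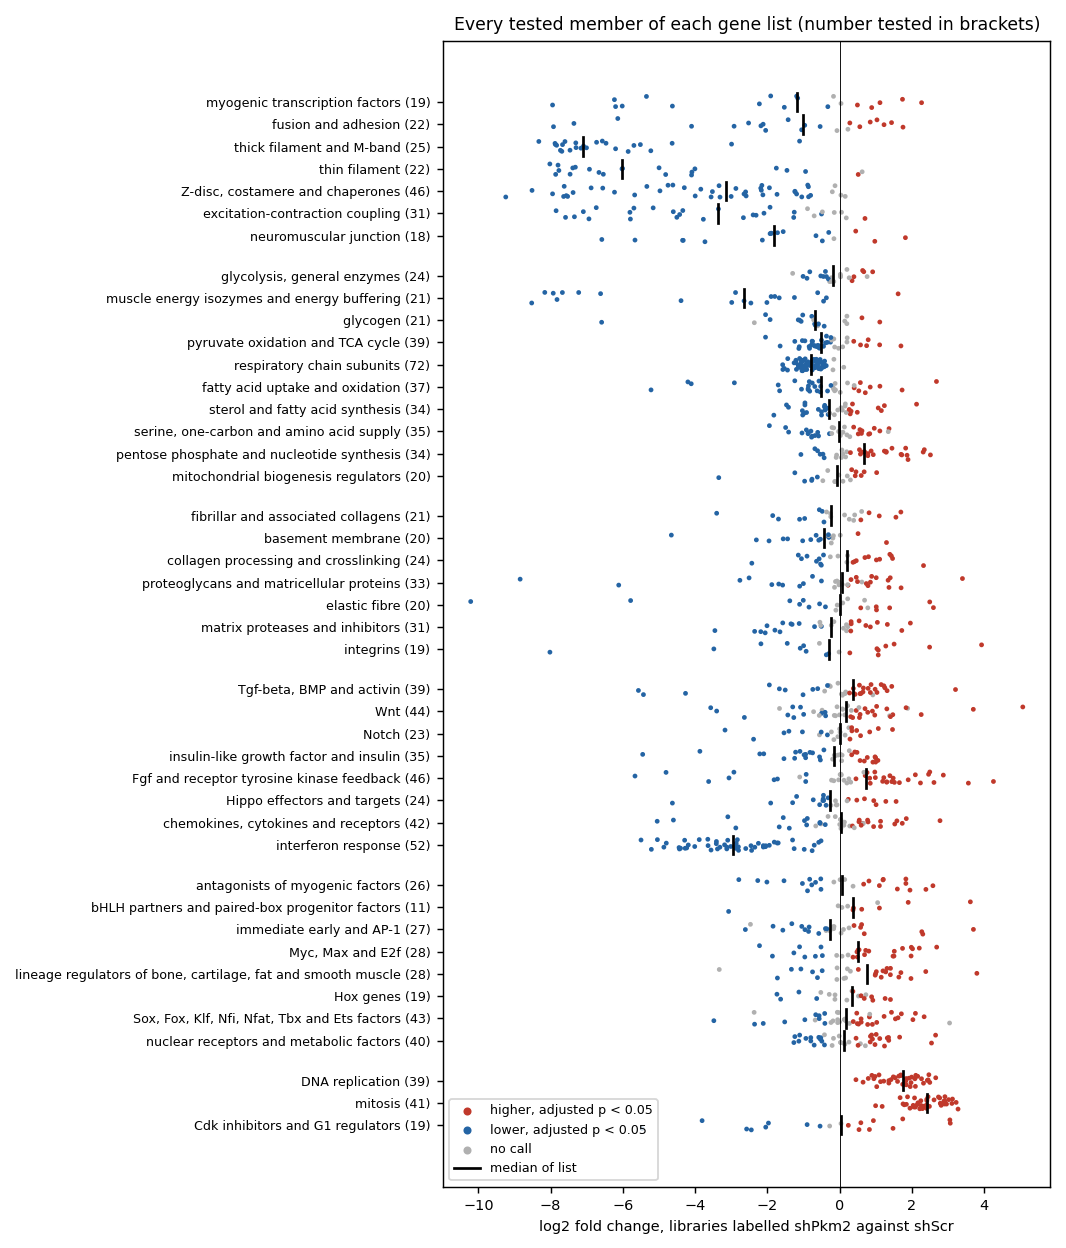
Log2 fold change of every tested member of 43 gene lists, libraries labelled shPkm2 against shScr, 1 point per gene (red called higher, blue called lower, grey no call at adjusted p under 0.05) with the median of each list as a black bar. The sarcomere lists sit far to the left, at medians of -7.09 and -6.02, the mitosis list sits to the right at 2.41, and most lists of signalling and transcription factor genes spread on both sides of 0.

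Most genes of the myotube programme fell. Of 181 tested genes in 7 lists of muscle regulators and structural genes, 148 were lower and 17 higher, with a median of -3.34 on the log2 scale (-3.0 once genes with 3 counts or fewer in both libraries of a group are set against 3 counts). Together they held 11.1% and 8.61% of the TPM (a share of transcripts, scaled to length) in the control libraries and 1.05% and 1.01% in those labelled shPkm2, with shPkm1 between them at 4.44% and 4.63%. Of the 100 genes most abundant by TPM in the control, 16 belonged to these lists, and 0 of the 100 in the libraries labelled shPkm2 did. In whole-culture RNA, fewer differentiated cells and less muscle RNA per cell cannot be told apart. The myoblast markers Myod1, Des and Cdh15 were still detected in the libraries labelled shPkm2, at 78.2 and 89.8, 1180.0 and 1119 and 273 and 264 CPM. Of these, Myod1 and Des were lower than in the control, at -2.22 and -2.13 on the log2 scale.

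**Figure D2:**
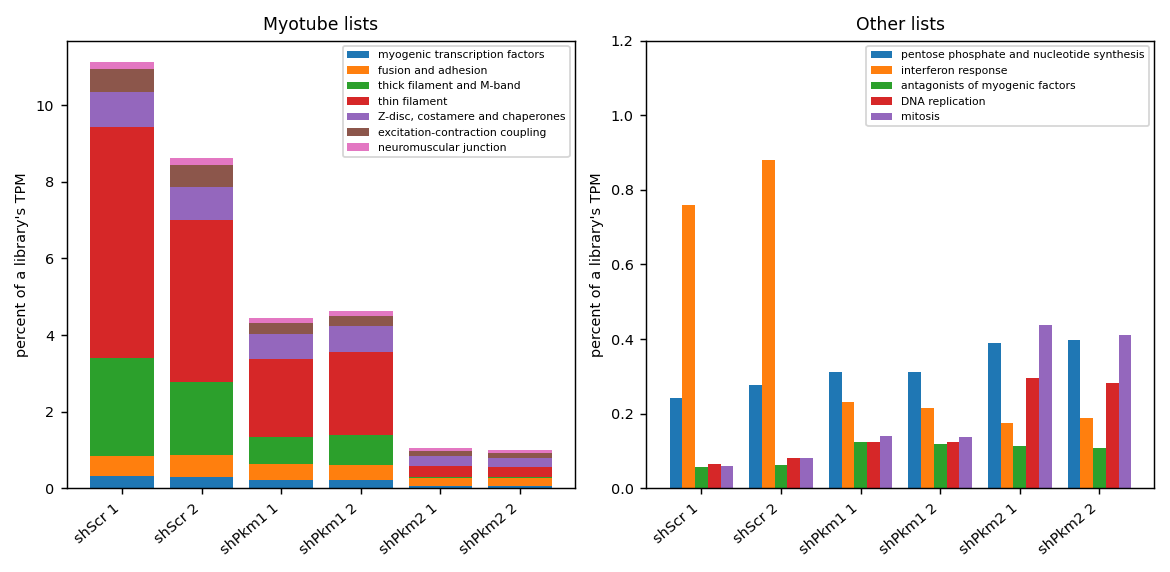
Percent of each library's TPM held by the 7 myotube lists (stacked, left) and by 5 other lists (side by side, right), for the 6 libraries. The myotube lists take 11.1% and 8.61% in the control libraries and 1.05% and 1.01% in those labelled shPkm2, while the mitosis list goes from 0.0588% and 0.0811% to 0.437% and 0.410%.

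Among the 19 tested myogenic transcription factors and cofactors, 12 fell and 5 rose. Myog, which drives terminal differentiation, stood at 2336 and 1988 CPM in the control libraries and 49.2 and 56.9 in those labelled shPkm2. It fell by 5.35 (SE 0.154, adjusted p 1.05e-11) on the log2 scale. Mef2c, its partner at muscle promoters, went from 23.3 and 5.48 to 0.235 and 0.191 CPM, and fell by 6.02 (SE 0.716, adjusted p 6.64e-06). The control libraries differed severalfold from each other in Mef2c, and both were above those labelled shPkm2. The paralogues Mef2d and Mef2a fell less, at -1.53 and -1.19. Myod1, the factor that commits cells to muscle, stood at 409 and 376 against 78.2 and 89.8 CPM, and fell by 2.22 (SE 0.109, adjusted p 1.18e-09), and so kept a larger share of its control level than Myog. The largest falls on the list were in the muscle LIM protein gene Csrp3, which had 516 and 514 counts against 3 and 2 and was 261-fold lower (interval 111 to 804), and in the splicing regulator Rbfox1 (-6.24) and the methyltransferase Smyd1 (-6.20).

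Myf5, the related factor of proliferating myoblasts, moved the other way. It stood at 18.2 and 18.7 CPM in the control libraries and 62.4 and 60.5 in those labelled shPkm2, a rise of 1.74 (SE 0.105, adjusted p 9.34e-09). Eya1, a transcription cofactor of muscle progenitors, rose by 2.26 (SE 0.174, adjusted p 9.95e-08), from 4.25 and 5.31 to 26.2 and 19.9 CPM, and Pitx3 rose by 1.11. Six4, a factor Eya1 works with, rose by 0.49. Against shPkm1, Myf5 differed by 1.48 (SE 0.103, adjusted p 6.3e-08), Myod1 by -1.33 (SE 0.107, adjusted p 2.69e-07) and Myog by -4.41 (SE 0.147, adjusted p 6.82e-11).

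Fusion genes changed in both directions. Mymk (myomaker), the membrane protein that joins myoblasts, stood at 2652 and 2280.3 CPM in the control libraries and 13.9 and 16.2 in those labelled shPkm2, and fell by 7.36 (SE 0.168, adjusted p 3.61e-12). Its partner Mymx (myomerger) went from 269.8 and 213 to 2.73 and 4.10 CPM, and fell by 6.14 (SE 0.181, adjusted p 1.14e-11). Neither gene's groups came near to overlapping, and in 10608 of the 12643 tested genes the groups did not overlap. Cav3, the muscle caveolin, fell by 7.92 (SE 0.529, adjusted p 2.4e-08). The general guanine exchange factor gene Dock5, the tetraspanin gene Cd9 and the adhesion gene Kirrel rose by 1.75, 1.43 and 1.23. Over the whole list, 13 of 22 tested members fell and 7 rose, with a median of -1.01.

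All 25 tested genes of the thick filament and M-band fell, with a median of -7.09 (-6.68 once the 5 such genes are set against 3 counts). Myh8 stood at 172 and 61.4 CPM in the control libraries and 0.330 and 0.382 in those labelled shPkm2, and fell by 8.33 (SE 0.557, adjusted p 2.44e-08). The essential light chain gene Myl4 went from 2739 and 1704 to 9.18 and 9.69 CPM and fell by 7.88 (SE 0.244, adjusted p 1.71e-11). Every sarcomeric myosin heavy chain tested fell, whether fast, slow or developmental: Myh1 at -7.87, Myh3 at -7.67, Myh6 at -5.86 and Myh7 at -6.47. With few or no counts left, Myh2 was 146-fold lower (interval 39.8 to 1208.4), Myh4 was 245-fold lower (interval 83.3 to 1189.3), Myh7b was 152-fold lower (interval 58.9 to 559) and the sparse Myh13, at 0 in both libraries labelled shPkm2, was at least 1.72-fold lower. These genes are close in sequence, so reads may have been divided between them by the counting, but no member went against the rest. The smallest falls were in the scaffold gene Obsl1, at -2.99, and the kinase gene Mylk2, at -1.11.

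Of 22 tested thin filament genes, 20 fell and 1 rose, with a median of -6.02. Acta1, skeletal actin, stood at 16849 and 10369 CPM in the control libraries and 60.6 and 61.9 in those labelled shPkm2, and fell by 7.80 (SE 0.266, adjusted p 3.98e-11). Actc1, the cardiac actin of young myotubes, went from 8478 and 3382 to 24.3 and 26.7 CPM, and fell by 7.86 (SE 0.388, adjusted p 1.28e-09). The control libraries differed from each other by less than the group difference in both. The troponin genes fell whatever their fibre type, between -8.02 for Tnnc2 and -1.75 for the low-count cardiac Tnni3. The tropomyosins were graded: Tpm2 fell by 4.10 and Tpm1 fell by 1.46, while Tpm3, which also makes cytoskeletal forms, rose by 0.51 (SE 0.101, adjusted p 0.000549).

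In the Z-disc, costamere and chaperone list 42 of 46 tested genes fell and 0 rose, with a median of -3.16. Smpx and Csrp3 led it, and the small heat shock protein gene Hspb7 went from 42.7 and 26.3 to 0.188 and 0.143 CPM (-7.64 (SE 0.350, adjusted p 6.26e-10)). Sarcoglycan genes, which anchor the membrane to the cytoskeleton, included Sgca at -3.34 and Sgcb at -0.81, both called lower, and Sgcd at -0.13 without a call. The ubiquitin ligase gene Trim63, known from muscle atrophy, fell by 6.23, whereas Fbxo32, the other atrophy ligase, had -0.21 and no call. Desmin (Des) stood at 5245 and 4797 against 1180.0 and 1119 CPM and fell by 2.13.

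Genes that couple the nerve signal to contraction fell with the sarcomere: 24 of 31 tested, with 1 higher and a median of -3.36 (-2.67 with such genes set against 3 counts). Cacna1s, the voltage sensor of the transverse tubule, stood at 254 and 229.5 CPM in the control libraries and 0.989 and 1.10 in those labelled shPkm2, and fell by 7.85 (SE 0.166, adjusted p 2.23e-12). Casq2, a calcium store protein of the reticulum, went from 707 and 527 to 3.25 and 3.15 CPM, and Dhrs7c, a reductase of the same membrane, from 62.4 and 17.1 to 0.188 and 0.286. Asph, whose products include junctin as well as a widely made hydroxylase, was the gene that rose, by 0.70 (SE 0.119, adjusted p 0.000164). At the neuromuscular junction 14 of 18 fell, led by Colq, the collagen tail of acetylcholinesterase (-6.58), the neuregulin receptor Erbb3 (-5.67) and the esterase itself, Ache (-4.35). The acetylcholine receptor subunits fell unequally, with the embryonic gamma subunit Chrng at -4.33 and the delta, alpha and beta subunits at -2.14 (Chrnd), -1.90 (Chrna1) and -1.72 (Chrnb1). Nefm (neurofilament, 1.82), the Ets factor Etv5 (0.97) and Ephb6 (0.44) rose, but the call of Ephb6 was lost with DESeq2, in the fit of these 4 libraries alone and without either library labelled shPkm2 or without the first control library.

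**Figure D3:**
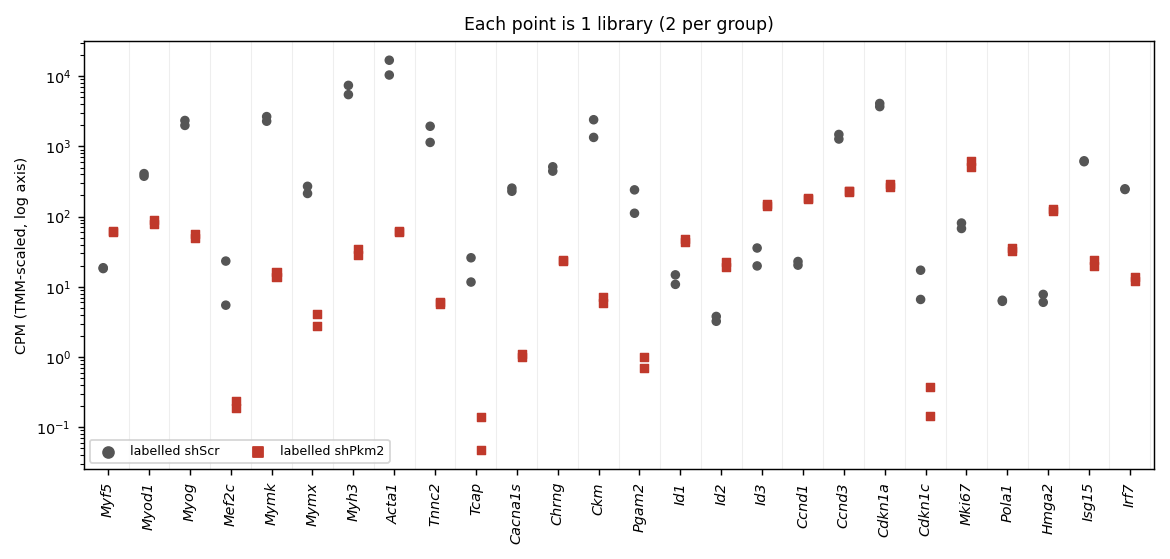
CPM of 26 genes in each control library (circles) and each library labelled shPkm2 (squares) on a log axis. Muscle genes such as Acta1 and Ckm lie more than 2 orders of magnitude apart between the groups. Myf5, Id1, Id2, Id3, Ccnd1, Mki67, Pola1 and Hmga2 are higher in the libraries labelled shPkm2. No gene shown has overlapping groups, as is the case for 10608 of the 12643 tested genes.

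Promoters of these genes were searched for a short sequence that muscle regulators are known to bind, and binding itself was not tested. The E-box CAGCTG, searched on both strands (it reads the same on each), is the form that Myod1 and Myog are known to prefer. It was in 30.1% of 136 promoters of myotube genes called lower and in 37.5% of 40 promoters of the thick and thin filament genes called lower, against 15.7% of the promoters of all tested genes and 16.3% of all 32851 mouse promoters in the RefSeq table (GRCm38.p6, 250 bases before to 50 after each start). Among the promoters of all genes called lower, 18.3% held the E-box. Of the 148 myotube genes called lower, 104 matched that table. A match is a description of the letters only. The 200 bases before the start of Cacna1s (chr1:136052611-136052810, plus strand) and of the muscle phosphoglycerate mutase gene Pgam2 (chr11:5803797-5803996, minus strand) are given 5′ to 3′ along the gene, with the E-box in capitals, 123 and 125 bases before the start.
Cacna1s: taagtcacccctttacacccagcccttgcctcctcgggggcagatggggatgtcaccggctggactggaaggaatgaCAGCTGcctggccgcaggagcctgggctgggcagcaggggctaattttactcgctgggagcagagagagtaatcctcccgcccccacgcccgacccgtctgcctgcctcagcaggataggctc
Pgam2: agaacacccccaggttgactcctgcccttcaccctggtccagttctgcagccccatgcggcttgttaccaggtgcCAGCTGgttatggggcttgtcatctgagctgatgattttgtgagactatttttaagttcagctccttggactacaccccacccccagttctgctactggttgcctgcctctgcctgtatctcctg

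Muscle makes its own isozymes of many metabolic enzymes, and nearly all of these fell. Of 21 tested genes of muscle isozymes and energy buffering, 20 fell, with a median of -2.65. Ckm, which regenerates ATP from phosphocreatine, stood at 2394 and 1341 CPM in the control libraries and 7.16 and 5.87 in those labelled shPkm2, and fell by 8.16 (SE 0.301, adjusted p 8.28e-11). Mb, the oxygen store myoglobin, went from 630.1 and 528 to 2.35 and 2.39 CPM, and fell by 7.93 (SE 0.167, adjusted p 2.23e-12). The control libraries differed from each other in both genes, most in Ckm, and stood far above those labelled shPkm2.

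Isozymes of the same reaction can be set side by side. Pgam2, the muscle phosphoglycerate mutase whose promoter is given above, fell by 7.67, and its general counterpart Pgam1 rose by 0.63 (SE 0.110, adjusted p 0.000191). The muscle phosphofructokinase Pfkm fell by 2.65 while the platelet type Pfkp rose by 0.34 and the liver type Pfkl was at 0.02 (no call). The muscle enolase Eno3 fell by 1.68, with Eno1 at -0.28 (no call). In cytochrome oxidase, the muscle subunits Cox8b, Cox6a2 and Cox7a1 fell, at -7.82, -7.22 and -2.99, against -0.65, -0.42 and -0.75 for the general subunits Cox8a, Cox6a1 and Cox7a2. The general glycolytic list as a whole had 8 genes lower, 5 higher and 11 without a call. Those lower and higher were 33.3% and 20.8%, against 34.2% and 33.9% of all tested genes. The median of the list was -0.20 and turned to 0.13 with library totals only. Aldolase A (Aldoa, -1.01), hexokinase 2 (Hk2, -0.91) and triose phosphate isomerase (Tpi1, -0.83) fell most, and the regulator Pfkfb2 (0.91) and the lactate transporter Slc16a1 (0.67) rose most.

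Glycogen genes changed in both directions, with 12 of 21 lower and 2 higher. Pygm, the muscle glycogen phosphorylase, went from 585 and 352 to 4.94 and 4.77 CPM, and fell by 6.59 (SE 0.236, adjusted p 5.91e-11), and the synthase gene Gys1 fell by 1.93. The brain phosphorylase gene Pygb rose by 0.61 and the phosphoglucomutase gene Pgm2 by 1.11, while Pgm1 fell by 1.07. Thus the phosphorylase genes, and the genes named as phosphoglucomutases, each included a gene that fell and a gene that rose.

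Genes of mitochondrial oxidation fell broadly but by small amounts. In the respiratory chain 69 of 72 tested subunit genes fell and 0 rose, with a median of -0.80 (-0.47 with library totals only) and a range from -1.58 to 0.11. The largest falls were in Uqcr11 of complex III (479.5 and 396 against 136 and 157 CPM, -1.58 (SE 0.125, adjusted p 1.33e-07)) and in Ndufa13 (-1.57) and Ndufb7 (-1.53) of complex I. Against shPkm1 the same list had 7 genes higher and 14 lower, where 25.7% and 27.3% of all tested genes were higher and lower than in shPkm1. That contrast uses the same libraries labelled shPkm2.

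The pyruvate oxidation and TCA cycle list had 26 of 39 genes lower and 6 higher, with a median of -0.51. Pyruvate dehydrogenase kinases, which switch the complex off, went both ways: Pdk2 stood at 96.1 and 66.2 against 18.2 and 20.9 CPM and fell by 2.05 (SE 0.167, adjusted p 1.74e-07), while Pdk4 stood at 11.8 and 13.2 against 42 and 39.2 CPM and rose by 1.69 (SE 0.117, adjusted p 3.35e-08). Pdk3 rose by 0.57 and Pdk1 was at -0.14 without a call. Pyruvate carboxylase (Pcx) fell by 1.65 and the complex component Pdhx fell by 1.24. The NADPH-making enzymes Idh1, cytosolic isocitrate dehydrogenase, and Me1, malic enzyme, rose by 1.10 and 0.79.

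Fatty acid genes changed in both directions, with 21 of 37 uptake and oxidation genes lower and 8 higher. The binding proteins moved oppositely: Fabp3, the heart and muscle form, stood at 64.1 and 44.3 CPM in the control libraries and 2.97 and 3.29 in those labelled shPkm2 (-4.11 (SE 0.189, adjusted p 6.59e-10)), and Fabp5, the epidermal form, at 17.0 and 16.3 and 102 and 112 (2.68 (SE 0.109, adjusted p 2.04e-10)). The acyl-CoA synthetase gene Acsl6 and the uncoupling protein gene Ucp2 fell, at -4.2 and -2.92. Lipoprotein lipase (Lpl) rose by 1.73, and so did the mitochondrial carnitine transferase gene Cpt1a, by 1.11. In lipid synthesis, the sterol synthesis genes Mvd (-1.82) and Dhcr7 (-1.03) fell, and the fatty acid elongase gene Elovl6 (2.12) and the desaturase genes Fads1 (1.15) and Fads2 (1.06) rose. The synthesis list had 17 genes lower and 9 higher, with a median of -0.30 that turned to 0.03 with library totals only.

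Nucleotide supply was the metabolic list with most rises. Of 34 tested genes of the pentose phosphate pathway and nucleotide synthesis, 21 rose and 6 fell, with a median of 0.66. G6pdx, the enzyme that opens the pentose phosphate pathway, stood at 43.0 and 57.7 CPM in the control libraries and 256 and 255 in those labelled shPkm2, a rise of 2.34 (SE 0.128, adjusted p 3.43e-09). Thymidine kinase Tk1, which salvages thymidine for DNA synthesis, went from 24.5 and 37.7 to 146 and 163 CPM and rose by 2.31 (SE 0.159, adjusted p 3.24e-08). Impdh1, of guanine nucleotide synthesis, fell by 1.07, as did the lactonase gene Pgls (-0.69) and Adsl (-0.61). G6pdx and Tk1 were also higher than in shPkm1, by 1.38 and 1.31.

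In serine, one-carbon and amino acid supply, 10 of 35 genes were higher and 14 lower. Stress genes driven by Atf4 were among the lower ones, with Chac1 at -1.95 and Trib3 at -1.5, and the amino acid transporter Slc7a5 at -1.42. The formate enzyme Mthfd1l (1.36) and the glutaminase Gls2 (0.95) rose. Against shPkm1, 22 of the list were lower and 5 higher, where 27.3% and 25.7% of all tested genes were lower and higher. Among 20 tested regulators of mitochondrial biogenesis 6 fell and 6 rose, 30.0% each, near the 34.2% and 33.9% of all tested genes. Those lower included the receptor Esrra (-1.24), the deacetylase Sirt3 (-0.97) and the coactivator Ppargc1b (-0.78). Those higher included Sirt1 (1.02), the fission gene Dnm1l (0.68) and Gabpa (0.59).

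Matrix genes moved in both directions against the control and mostly downwards against shPkm1. Of 168 tested matrix genes, 56 were higher and 71 lower than in the control, 33.3% and 42.3% of them, and the median of -0.15 turned to 0.17 with library totals only. Against shPkm1, 128 of the same genes were lower and 14 higher, with a median of -1.05. Of all tested genes, 27.3% were lower and 25.7% higher than in shPkm1. By TPM the matrix lists held 1.45% and 1.84% of the control libraries, 2.08% and 1.96% of those labelled shPkm2 and 5.09% and 4.96% of the shPkm1 libraries.

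The fibrillar collagens differed among themselves. Col1a1, the main chain of type I collagen, stood at 1641 and 1468 CPM in the control libraries, 154 and 139 in those labelled shPkm2 and 8232 and 8605 in shPkm1. It fell by 3.41 (SE 0.147, adjusted p 3.58e-10) against the control and differed from shPkm1 by -5.84 (SE 0.164, adjusted p 2.34e-11). Its partner chain Col1a2 stood at 1019 and 1112, 924 and 870.5 and 5321 and 5346 CPM in the same order, with -0.25 against the control and no call. The chains that assemble together were thus unequal in the libraries labelled shPkm2. Col6a2 and Col5a3 fell, at -1.85 and -1.70, whereas Col12a1, which decorates fibrils, rose by 1.69 (SE 0.124, adjusted p 5.95e-08) from 209.5 and 248 to 777 and 702 CPM. Col11a1 and Col16a1 rose by 1.55 and 1.09. In all 8 of 21 collagen genes (38.1%) were lower than in the control and 5 (23.8%) higher, and 17 were lower than in shPkm1. Of all tested genes, 34.2% were lower and 33.9% higher than in the control.

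**Figure D4:**
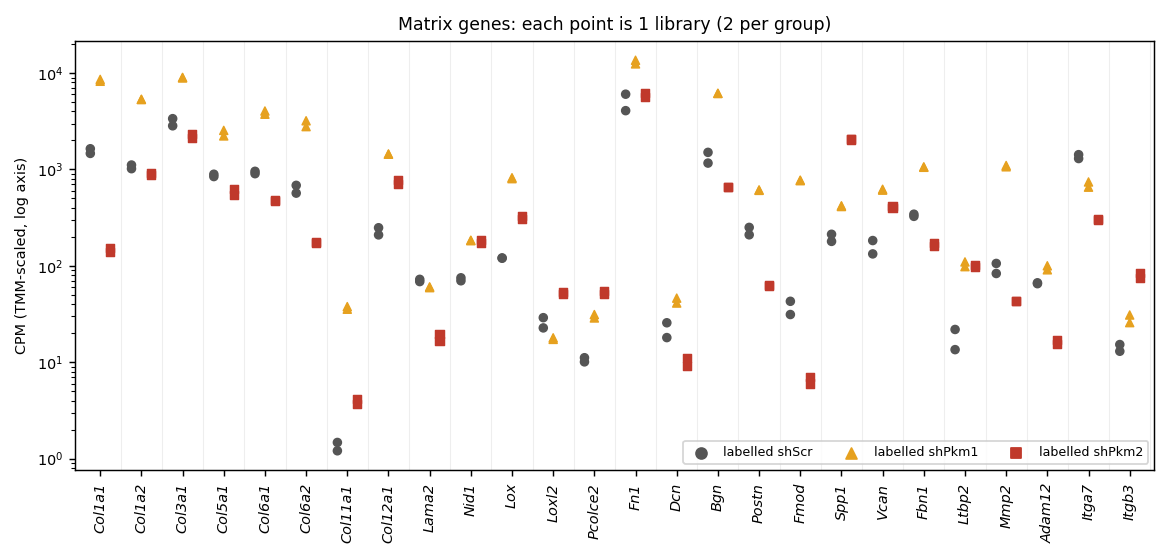
CPM of 26 matrix genes in every library of the 3 groups on a log axis (circles control, triangles shPkm1, squares labelled shPkm2). Col1a1, Postn, Fmod and Mmp2 run highest in shPkm1 and lowest in the libraries labelled shPkm2, while Spp1, Loxl2, Pcolce2 and Itgb3 are highest in the libraries labelled shPkm2.

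Basement membrane genes were lower in 13 of 20 cases and higher in 2. Lama2, the alpha chain of muscle laminin, stood at 68.6 and 72.4 against 19.7 and 16.6 CPM and fell by 1.96 (SE 0.111, adjusted p 4.81e-09), and agrin (Agrn) fell by 1.56. Nidogen 1 (Nid1), which bridges laminin and collagen IV, rose by 1.29 (SE 0.0989, adjusted p 9.31e-08). Col18a1 rose by 0.51, a call lost with DESeq2, without the first control library and without either library labelled shPkm2.

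Of 24 genes for enzymes that mature collagen, 11 were higher (45.8%) and 9 lower (37.5%), against 33.9% and 34.2% of all tested genes. Pcolce2, an enhancer of procollagen cleavage, stood at 10.1 and 11.1 against 50.9 and 55.1 CPM and rose by 2.32 (SE 0.117, adjusted p 1.57e-09). The lysyl oxidases, which crosslink collagen and elastin, included Lox (1.39), Loxl2 (1.01), Loxl3 (0.80) and Loxl4 (1.46), all called higher, and Loxl1 (-1.06), called lower. The prolyl hydroxylase chain P4ha3 rose by 1.43, while the transglutaminase Tgm2 and the procollagen peptidase Adamts2 fell, at -2.43 and -1.15.

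Among proteoglycans and matricellular proteins Spp1 (osteopontin), a phosphoprotein that binds integrins, rose most. It was at 179 and 213 CPM in the control libraries, 2045 and 2079.9 in those labelled shPkm2 and 412 and 419.6 in shPkm1, a rise of 3.40 (SE 0.130, adjusted p 1.09e-10) against the control. Ccn3 and versican (Vcan) rose by 1.40 and 1.36. In shPkm1 Ccn3 stood at 115.5 and 113.8 CPM, against 5.46 and 5.73 in the libraries labelled shPkm2. Vcan stood at 623 and 610 in shPkm1, against 416 and 397. Cilp, related to Cilp2, had 119 and 172 counts against 2 and 3 and was 73.6-fold lower (interval 31.2 to 228), and the leucine-rich proteoglycan gene Prelp fell by 2.76. Adamtsl2 had a relative that moved the other way, since Adamtsl3 rose by 2.59 (SE 0.167, adjusted p 1.68e-08) from 3.36 and 2.26 to 17.5 and 16.2 CPM. Adamtsl3 was at 58.4 and 58.9 CPM in shPkm1. Fibrillin 1 (Fbn1) fell by 1.01 and Adamtsl5 fell by 1.11, whereas Ltbp2, a fibrillin-binding protein of the elastic fibre, rose by 2.49 (SE 0.166, adjusted p 2.32e-08), and fibulin 1 (Fbln1) by 1.38.

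Proteases and integrins also divided. The membrane protease Mmp15 fell by 3.46 (SE 0.123, adjusted p 5.55e-11), and so did Adamts4 (-2.35) and Mmp13 (-2.19). Mmp16, the urokinase receptor Plaur and the inhibitor Reck rose by 1.95, 1.72 and 1.32. Itga7, the laminin receptor of muscle, stood at 1299 and 1425 against 296 and 304 CPM and fell by 2.18 (SE 0.120, adjusted p 3.59e-09), and Itgb1bp2 (melusin), a muscle partner of integrin beta 1, fell by 8.02. Itgb3, a chain of receptors for fibronectin and osteopontin, stood at 13.0 and 15.2 against 84.5 and 74.2 CPM and rose by 2.49 (SE 0.131, adjusted p 2.47e-09). Itgb7 and Itgb4 rose by 3.92 and 1.27 and Itgb6 fell by 3.48.

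Among the signalling lists the interferon list fell as a whole, and each of the others had genes called in both directions. Among ligands and inhibitors of the Tgf-beta, BMP and activin pathway, follistatin (Fst), which traps activin and myostatin, stood at 112 and 122 CPM in the control libraries and 2.26 and 2.67 in those labelled shPkm2, and fell by 5.57 (SE 0.141, adjusted p 4.82e-12). Gremlin 1 (Grem1), a BMP antagonist, went from 4.56 and 7.34 to 56.7 and 54.0 CPM, a rise of 3.20 (SE 0.162, adjusted p 1.57e-09). Another BMP antagonist, Chrd, fell by 4.27, and the ligand gene Tgfb3 fell by 1.95. The receptor Tgfbr1 and the inhibitory Smad7 rose by 1.22 and 1.31. In all 20 of 39 members rose and 10 fell, with a median of 0.38.

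The list of Fgf and receptor tyrosine kinase genes, which holds ligands, receptors and feedback inhibitors, had 25 of 46 members higher and 9 lower, with a median of 0.73. Fgf7 stood at 9.13 and 9.44 CPM in the control libraries and 107 and 112 in those labelled shPkm2, a rise of 3.56 (SE 0.117, adjusted p 2.96e-11). Hgf, the ligand of Met, went from 2.98 and 2.37 to 19.7 and 19.2 CPM and rose by 2.87 (SE 0.177, adjusted p 1.1e-08), and Met, which marks muscle progenitors, rose by 1.89. Pdgfra, the receptor of mesenchymal cells, rose from 5.13 and 7.23 to 34.6 and 33.8 CPM, by 2.46 (SE 0.145, adjusted p 7.29e-09). The falls included Erbb3, the circulating hormone Fgf21 (-4.81) and the feedback inhibitor Spry1 (-3.06). Other feedback genes of the same list, Spry2 and Spry4, rose by 0.45 and 0.70.

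Igf2, the growth factor that cultured myoblasts make as they differentiate, stood at 1431 and 660.3 CPM in the control libraries, 23.4 and 24.3 in those labelled shPkm2 and 205 and 179 in shPkm1. It fell by 5.45 (SE 0.297, adjusted p 3.27e-09) against the control. In the same list Akt2 and the binding protein gene Igfbp4 fell, at -2.21 and -1.25. Irs2, the kinase subunit gene Pik3r1 and the RNA-binding protein gene Igf2bp3 rose by 1.06, 0.99 and 0.99. The list had 16 of 35 members lower (45.7%) and 11 higher (31.4%), against 34.2% and 33.9% of all tested genes.

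In the Wnt list 17 of 44 members rose (38.6%) and 11 fell (25.0%), against 33.9% and 34.2% of all tested genes. The median was 0.18. The ligands Wnt9a (-3.41) and Wnt4 (-1.30) and the receptor Fzd5 (-1.44) fell. Sfrp2, a secreted Wnt inhibitor, stood at 4.44 and 8.98 against 32.9 and 31.9 CPM and rose by 2.25 (SE 0.204, adjusted p 4.93e-07), and the receptor Lgr4 and the nuclear effector Tcf7l2 rose by 1.47 and 1.40. In shPkm1 Sfrp2 stood at 461 and 489 CPM, Lgr4 at 15.6 and 12.7 and Tcf7l2 at 19.6 and 16.5. In the Notch list 8 of 23 rose (34.8%) and 7 fell (30.4%), near the shares of all tested genes. The ligand Dll1 (-3.17), the Hes family gene Hes6 (-2.38) and the target gene Heyl (-1.54) fell, and the glycosyltransferase Lfng (1.46), the protease Adam10 (1.07) and the receptor Notch2 (0.83) rose.

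Among Hippo effectors the transcription factor Tead4, a partner of Yap1 that acts in myotubes, stood at 170.3 and 127 CPM in the control libraries and 5.79 and 6.20 in those labelled shPkm2, and fell by 4.63 (SE 0.165, adjusted p 5.62e-11). Its paralogues did not share that size: Tead1 was at -0.10 and Tead2 at 0.20, both without a call, and Tead3 at -0.46, called lower. The cofactors Vgll2 and Vgll3 fell, at -1.91 and -1.30. The kinase gene Lats1, its activator Mob1a and Crim1 rose by 1.27, 1.00 and 1.56. Over the list 12 of 24 fell and 7 rose.

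All 52 tested interferon response genes were lower than in the control, with a median of -2.95, and 26 were lower by 8-fold or more. Ifit3, an antiviral protein, stood at 702 and 856 CPM in the control libraries, 17.6 and 16.9 in those labelled shPkm2 and 32.4 and 30.2 in shPkm1, and fell by 5.5 (SE 0.139, adjusted p 4.82e-12) against the control. Its near copy Ifit3b fell by 5.21, and reads of the pair may not be separable. Usp18, the protease that removes Isg15, went from 254 and 266 to 7.86 and 7.87 CPM, with 5.27 and 5.06 in shPkm1. Against shPkm1 these genes had 11 higher and 14 lower and a median of -0.08. Of all tested genes, 25.7% were higher and 27.3% lower than in shPkm1. The control libraries were the highest of the 3 groups: the list held 0.759% and 0.879% of the TPM in those, 0.175% and 0.187% in the libraries labelled shPkm2 and 0.230% and 0.216% in shPkm1. Chemokines that interferon induces, Cxcl9 (-5.05) and Cxcl10 (-4.60), also fell, as did Ccl8 (-2.88), whereas Il33 (2.77), Cxcl5 (1.84) and Cxcl1 (1.73) rose. The control libraries differed from each other in Ccl8 (8.43 and 22.1 CPM), Cxcl5 (14.1 and 49.1) and Cxcl1 (16.5 and 37.5). In the chemokine and cytokine list 35.7% of tested members rose and 31.0% fell, near the 33.9% and 34.2% of all tested genes.

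The letters TTTCNNTTT, searched on both strands as a simple form of the interferon response element, were in 50% of 52 promoters of these genes, against 7.91% for all tested genes and 10.6% of all promoters. Isg15 is shown because its matches overlap in 1 run. Its 200 bases before the start (chr4:156200819-156201018, minus strand, from the same RefSeq table) are given 5′ to 3′ along the gene, with 3 overlapping matches, all on the opposite strand, in capitals. The run begins 77 bases before the start. Isg15 itself stood at 623 and 604 CPM in the control libraries and 19.9 and 24.2 in those labelled shPkm2, and fell by 4.80 (SE 0.128, adjusted p 6.08e-12).
Isg15: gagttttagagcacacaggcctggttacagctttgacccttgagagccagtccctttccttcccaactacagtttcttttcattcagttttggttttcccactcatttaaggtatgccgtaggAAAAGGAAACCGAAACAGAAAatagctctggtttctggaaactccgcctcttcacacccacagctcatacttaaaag

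Genes of the transcription factor lists other than the myogenic list rose more often than they fell. These lists also hold some other regulators, such as Met and Ezh2. Of 222 genes tested, 97 were higher and 64 lower, with a median of 0.22. The Id genes tested, Id1, Id2 and Id3, all rose. Id1 stood at 10.8 and 14.8 CPM in the control libraries and 43.2 and 48.4 in those labelled shPkm2, a rise of 1.83 (SE 0.141, adjusted p 1.02e-07). Id2 went from 3.23 and 3.79 to 19.4 and 22.8 CPM, a rise of 2.58 (SE 0.159, adjusted p 1.11e-08), and Id3 from 19.8 and 35.7 to 142 and 149, a rise of 2.38 (SE 0.196, adjusted p 1.94e-07). The groups did not overlap in any of them, as in 10608 of the 12643 tested genes. Against shPkm1 the differences were 1.23 (SE 0.134, adjusted p 4.95e-06) for Id1, 0.66 (SE 0.132, adjusted p 0.000886) for Id2 and 1.2 (SE 0.184, adjusted p 0.000110) for Id3.

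Antagonists of the myogenic factors as a list were evenly divided, with 11 of 26 higher and 11 lower. That was 42.3% each, against 33.9% and 34.2% of all tested genes. Beside the Id genes, Ezh2, the methyltransferase that silences muscle genes in myoblasts, rose by 1.94 (SE 0.116, adjusted p 7.91e-09) from 21.2 and 18 to 77.3 and 73.1 CPM. Sox8 fell by 2.79. Zbtb18, which is on the list though it is known as a repressor of Id genes in muscle, fell by 2.27. So did the Notch targets Heyl and Hey1, at -1.54 and -1.03. The E proteins that pair with Myod1 all rose, Tcf3 by 0.61, Tcf12 by 0.38 and Tcf4 by 0.37.

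**Figure D5:**
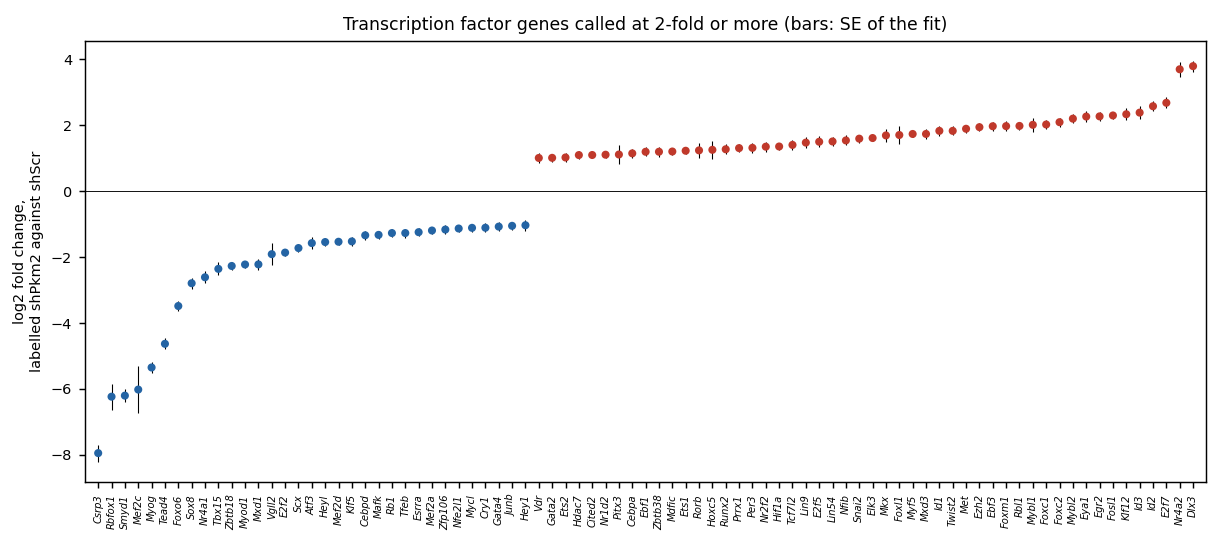
Log2 fold change with its standard error for 83 genes of the transcription factor lists, the myogenic list included, in order of size. The lists also hold other regulators, such as the LIM protein gene Csrp3, the splicing regulator Rbfox1, the methyltransferase Ezh2 and the receptor Met. Each gene shown was called at 2-fold or more and had a mean of at least 50 counts. Of these 33 are lower, from Csrp3 and Rbfox1 (-6.24) upwards, and 50 are higher, up to Nr4a2 at 3.70 and Dlx3 at 3.79.

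Immediate early genes, which respond to serum and other stimuli within minutes, did not move together. The orphan receptors Nr4a2 and Nr4a1 differed in direction: Nr4a2 stood at 0.761 and 1.36 against 14.6 and 13.4 CPM and rose by 3.70 (SE 0.232, adjusted p 1.3e-08), and Nr4a1 stood at 37.7 and 25.4 against 4.94 and 5.34 CPM and fell by 2.61 (SE 0.182, adjusted p 3.77e-08). Among AP-1 subunits Fosl1 rose by 2.30 (SE 0.104, adjusted p 5.31e-10) while Junb, Jund and Fos fell, at -1.05, -0.85 and -0.96. Egr2 rose by 2.27 and Egr1 by 0.58. The stress factor Atf3 and the small Maf gene Mafk fell, at -1.57 and -1.33.

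In the Myc, Max and E2f list 17 of 28 rose and 8 fell. E2f7, a repressor expressed in S phase, stood at 7.54 and 12 against 63.5 and 62.7 CPM and rose by 2.68 (SE 0.164, adjusted p 9.98e-09), and the Myb relatives Mybl2 and Mybl1 rose by 2.20 and 2.01. E2f2 went the other way, from 124 and 112 to 33.9 and 31.0 CPM, and fell by 1.86 (SE 0.103, adjusted p 3.82e-09), while E2f1, E2f3 and E2f5 rose by 0.72, 0.80 and 1.5. The Myc antagonist Mxd1 and the retinoblastoma gene Rb1 fell, at -2.22 and -1.27. Its relative Rbl1 rose by 1.98, and Myc itself rose by 0.37.

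Regulators of other mesenchymal lineages rose in 15 of 28 cases and fell in 6, with a median of 0.75. Dlx3, known from bone and skin, stood at 2.35 and 3.39 CPM in the control libraries and 41.5 and 38.8 in those labelled shPkm2, a rise of 3.79 (SE 0.163, adjusted p 3.54e-10). Ebf3 and the tendon factor Mkx rose by 1.97 and 1.69, while scleraxis (Scx), another tendon factor, fell by 1.73, as did Cebpd (-1.34) and Gata4 (-1.07). In the Sox, Fox, Klf, Nfi, Nfat, Tbx and Ets list, Foxc1 and Foxc2 rose by 2.02 and 2.09 and Klf12 by 2.33, and Foxo6, Tbx15 and Klf5 fell, at -3.48, -2.36 and -1.52.

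Markers of other cell types were checked beside these changes, and their part in the results was not tested. Endothelial, immune, adipocyte, and neural and glial markers summed to at most 37.8 TPM in any of these 4 libraries. Of 9 endothelial markers 1 was tested, of 10 immune markers 4, of 10 adipocyte markers 2 and of 10 neural and glial markers 4. The 9 fibroblast markers summed to 1451 and 2708 TPM in the control libraries and 5742 and 6427 in those labelled shPkm2. Most of each sum was S100a4, at 1113 and 2328 against 5492 and 6135 TPM. Of 6 tested, 3 were higher, namely S100a4 (1.34), Cd34 (1.30) and Pdgfra, and 2 were lower, among them Ly6a (-0.97). The 12 osteoblast and chondrocyte markers summed to 209.6 and 275 against 2916 and 2805 TPM, nearly all of it Spp1, at 169 and 228 against 2904 and 2793 TPM, while Bglap2 (osteocalcin) fell by 2.57. The 10 smooth muscle markers summed to 12086 and 9747 against 3534 and 3466 TPM, with Acta2 (-2.24) and Lmod1 (-4.01) lower. Cnn1 rose by 0.50, a call lost with DESeq2, in the fit of these 4 libraries alone and without any of 3 of them (the first control library or either labelled shPkm2).

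Cell cycle genes rose: all 39 tested DNA replication genes and all 41 tested mitosis genes were higher in the libraries labelled shPkm2, with medians of 1.74 and 2.41. Mki67, the proliferation marker Ki-67, stood at 67.7 and 81.0 CPM in the control libraries, 613 and 501 in those labelled shPkm2 and 203 and 206 in shPkm1, a rise of 2.90 (SE 0.131, adjusted p 5.26e-10) against the control. Ncapg and Smc2, subunits of condensin, rose by 3.27 (SE 0.126, adjusted p 1.19e-10) and by 3.22, and the checkpoint kinase gene Ttk by 3.12. For replication, Prim1 (primase) rose by 2.66 (SE 0.118, adjusted p 4.62e-10), the licensing factor Cdc6 by 2.49 and topoisomerase Top2a by 2.47. The smallest rise on either list was 0.45, for the polymerase subunit Pold2. By TPM the mitosis list held 0.0588% and 0.0811% of the control libraries and 0.437% and 0.410% of those labelled shPkm2, and against shPkm1 38 replication genes and 41 mitosis genes were also higher.

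E2F factors bind TTTCGCGC or TTTGGCGC, searched on both strands. Either was in 30.0% of 40 promoters of the replication genes and 5.71% of 35 promoters of the mitosis genes, against 1.51% for all tested genes and 0.813% of all promoters. Pola1, the catalytic subunit of the polymerase that starts each strand, is shown. Its 200 bases before the start (chrX:93632156-93632355, minus strand, from the same RefSeq table) run 5′ to 3′ along the gene, and the match in capitals, on the opposite strand, begins 138 bases before the start. Pola1 stood at 6.21 and 6.44 CPM in the control libraries and 35.8 and 32.1 in those labelled shPkm2, a rise of 2.42 (SE 0.130, adjusted p 2.78e-09).
Pola1: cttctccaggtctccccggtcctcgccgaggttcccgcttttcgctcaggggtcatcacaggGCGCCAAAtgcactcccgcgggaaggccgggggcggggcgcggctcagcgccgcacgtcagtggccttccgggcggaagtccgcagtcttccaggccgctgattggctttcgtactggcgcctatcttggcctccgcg

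Of 19 tested Cdk inhibitors and G1 regulators, 9 rose (47.4%) and 8 fell (42.1%), against 33.9% and 34.2% of all tested genes. Cdkn1a stood at 4080.0 and 3679 CPM in the control libraries and 263 and 290.2 in those labelled shPkm2, and fell by 3.81 (SE 0.141, adjusted p 8.33e-11). Cdkn1c (p57), the related inhibitor, went from 17.2 and 6.61 to 0.377 and 0.143 CPM, and fell by 5.46 (SE 0.541, adjusted p 1.19e-06). The third member, Cdkn1b (p27), was at -0.28 without a call. The D cyclins moved in opposite directions: Ccnd1 rose by 3.06 (SE 0.107, adjusted p 5.07e-11) from 20.4 and 22.9 to 178 and 182 CPM, Ccnd3 fell by 2.58 (SE 0.121, adjusted p 7.79e-10) from 1477 and 1272 to 228 and 233 CPM, and Ccnd2 fell by 0.55. Ccnd3 is the D cyclin known to stay on in differentiated myotubes. The S phase cyclin Ccne2 and the kinase Cdk6 rose by 3.05 and 1.74. Against shPkm1, Cdkn1a differed by -2.92 (SE 0.135, adjusted p 1.25e-09), Ccnd1 by 0.94 (SE 0.0960, adjusted p 2.77e-06) and Ccnd3 by -1.16 (SE 0.116, adjusted p 2.2e-06).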

How the data were processed

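RNA of 6 libraries (3 groups of 2, from the sample titles) was measured. Per the file headers, the deposited table gives an estimated count, an FPKM and a TPM value for each of 57920 RefSeq transcripts and library. The deposited TPM values carry a correction for transcript length, with a sum of 999999 or 1000000 per library. The submitters' processing notes name the build mm10 and the tools HISAT, StringTie, Bowtie, RSEM and DESeq2, without roles or versions. Read length, strand and filters are not given in the sources used here, so reads of overlapping or antisense genes may not be separable. The 6 columns of FPKM and 9 columns of group means were not used.

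Estimated counts were summed per NCBI gene (17558, of which 17445 matched a symbol) and rounded. Genes passing filterByExpr (minimum count 10, minimum total 15) were fitted in edgeR 4.0.16 (R 4.3.3) with TMM scaling, 1 coefficient per group and all 6 libraries. Contrasts were tested with the two-sided quasi-likelihood F-test, adjusted over 12643 genes (Benjamini-Hochberg) and called under 0.05. The Pkm isoforms were tested by the same kind of fit on 33435 transcripts. Standard errors were taken from the log2 fold change and the root of F. A count of 3 or less was the floor, which covers counting error only, and a fold against a group at 0 in both libraries is a lower bound, taken against that floor. For groups with 1 to 3 counts the ratio of summed counts has an exact binomial 95% interval. Permuting 2 libraries against 2 gives no p under 0.333, and permutation was not used. TPM was used for levels across genes.

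The comparison and the 50 gene lists were chosen with earlier results of these data known, and lists are described by counts and medians without a test of the list. The counts of calls over lists have a gene counted in every list that holds it, and once in a family. Genes named were 16 fixed ones (Pkm, Myod1, Myog, Mymk, Mymx, Mef2c, Ckm, Acta1, Mki67, Cdkn1a, Cdkn1c, Id1, Id2, Id3, Col1a1 and Igf2), up to 3 rises and 3 falls per list, and the 10 largest rises and falls of all genes without predicted or clone names. The listed ones had to be called, without overlap of the groups, and average 50 counts or more. Some genes that the rule names are not reported here. Relatives, isozymes, subunits of 1 complex, markers, ends of a range and genes whose promoter is printed were added to these after their values were seen. Promoters came from a RefSeq table for GRCm38.p6 and were searched for fixed letters.

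Alternatives were DESeq2 1.42.0, its size factors in edgeR, library totals only, no filter, a filter at a mean of 50 counts, a fit of the compared groups alone, a block for the replicate number, and each library left out. The scripts were tested on simulated data.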

Additional observations from a re-analysis of the deposited data

How the results depend on the processing

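Between 7238 and 8797 genes were called under the 11 alternatives, against 8602, and with the replicate block it was 8566, so the block changed no call of a list or count by over 1.5 times. The replicate numbers did not pair the libraries: deviations from group means correlated at 0.0422 between shScr and shPkm2. Scaling by library totals only moved most. It gave 2829 genes higher at 2-fold or more in place of 1788, and 2702 genes lower in place of 4319. Lower matrix genes numbered 47 in place of 71, and lower genes of the transcription factor lists 40 in place of 64. The medians of the glycolysis, sterol, serine, mitochondrial biogenesis, collagen, protease, integrin, Notch, insulin-like growth factor, Hippo and immediate early lists, and of the matrix and signalling lists together, turned from below to above 0 with it, as did no other list described in the text. The Pkm2 isoform passed the threshold with library totals only (0.918), with a mean of at least 50 counts (0.63) and with DESeq2 (0.601), and ranged from 0.467 to 0.817 with a library left out, past the threshold without the second control library. Of the genes named by the rule, 0 changed direction under any alternative. Calls were lost for Ephb6, Col18a1, Cnn1 (each with DESeq2 and with several libraries left out) and Hoxc13 (with library totals only), and Pkm itself gained a call with library totals only (0.521) and without the second control library (0.307). With a library left out, the lone library of its group was assumed to vary like the others. At these depths, folds of genes at the floor are bounds or have wide intervals.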

Other observations

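Homeobox genes of the Hox clusters, which record position along the body axis, moved in both directions in the libraries labelled shPkm2. Of 39 listed, 19 were tested, 7 rose (36.8%) and 4 fell (21.1%), against 33.9% and 34.2% of all tested genes. Hoxa9 stood at 11.8 and 12.5 CPM in the control libraries and 23.1 and 22.9 in those labelled shPkm2, a rise of 0.92 (SE 0.117, adjusted p 1.26e-05). Hoxa11 and Hoxc5 rose by 0.88 and 1.25, and Hoxc13 fell by 0.64, a call lost with library totals only. All tested members were HoxA or HoxC genes.

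Nuclear receptors and metabolic factors had 16 of 40 genes higher (40%) and 13 lower (32.5%), near the 33.9% and 34.2% of all tested genes. Hif1a, the oxygen-sensing factor, stood at 89.8 and 75.7 CPM in the control libraries and 212 and 211 in those labelled shPkm2, a rise of 1.36 (SE 0.110, adjusted p 1.68e-07). The orphan receptor gene Nr2f2 and the clock gene Per3 rose by 1.35 and 1.31. Other clock genes were Clock and Arntl, which rose by 0.91 and 0.45, Cry1 and Cry2, which fell, at -1.11 and -0.58, and Per1 and Per2, at 0.03 and 0.14 without a call. Tfeb, a regulator of lysosome genes, fell by 1.27 while its relative Tfe3 rose by 0.84, and Nfe2l1 fell by 1.13 while Nfe2l2 rose by 0.51.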
